A study of Mus musculus with 12 samples.

Results

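The genes described here are 55 genes of mitosis, named by symbol: cyclins and the kinases they switch on, spindle checkpoint proteins, kinetochore and centromere proteins, the chromosomal passenger complex, spindle motors, cytokinesis proteins and condensins. A gene was taken if its symbol stood in the deposited table of normalised values with a mean of at least 10 over the 12 libraries. All 55 listed symbols met that rule, out of 11484 genes that reached the same mean. Values were taken from RNA sequencing of mouse leukaemia cells with 4 treatments and 3 libraries for each. The cells were BALB/c bone marrow cells that carried mutant CSF3R and mutant CEBPA from retroviruses, so every group shared both mutant genes. They were kept in IMDM with 20% FBS and treated for 24 h with DMSO (the solvent), with 50 nM ruxolitinib (which blocks the JAK1 and JAK2 kinases), with 2 nM GSK-LSD1 (which blocks the histone demethylase LSD1) or with the combination. The labels name no culture, clone or animal for a library, so a p-value measures the spread between these libraries, which may be technical.

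In mitosis, cyclin B bound to CDK1 drives the condensation of chromosomes and the building of the spindle. The checkpoint proteins hold the anaphase promoting complex back until every kinetochore is attached, after which CDC20 and UBE2C help to mark cyclin B and securin for destruction, separase opens cohesin and the cell divides. Most of these genes are transcribed late in the cell cycle, from promoters with an element called CHR and with CCAAT boxes, which are held silent by the DREAM complex and switched on by B-MYB and FOXM1.

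The promoters are shown first because these 2 short elements are what many of the members share. A RefSeq promoter window, 250 bases before to 50 after the start site on GRCm38.p6, was found for 45 of the 55 members. The CHR was searched as TTTGAA or TTCGAA and the CCAAT box as CCAAT, on both strands and with no overlap rule between the 2 motifs. A CHR match stood in the windows of 35 members (77.8%), against 16.2% of the 8865 tested genes with a window and 21.7% of all 27025 genes with one. A CCAAT match stood in 34 members (75.6%), against 43.3% and 41.1%, and both stood in 31 members (68.9%), against 6.8% and 8.6%. A match is a description of letters in a window and not a binding site.

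The last 120 bases before the RefSeq start site are printed for 8 members, with CHR and CCAAT matches in capitals; ATTGG and TTCAAA are the same motifs read on the other strand. Cdk1, Cdc20, Top2a and Espl1 show both motifs close together, and Ncapg, a condensin gene that fell after the combination, has a CHR alone in this stretch. Mki67, whose value passed no test, has 2 CHR matches here. Mad2l1, the gene with the largest difference after GSK-LSD1, and Nusap1, one that was higher, have neither motif in the whole window. The Mad2l1 window ends at 66535270, before the GENCODE start of the gene at 66535390, so the bases around that start were not searched.
Cdk1 (chr10:69352913-69353032, minus strand): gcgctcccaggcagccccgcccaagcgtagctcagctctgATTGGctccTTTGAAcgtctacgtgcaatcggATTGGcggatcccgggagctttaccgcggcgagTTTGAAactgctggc
Cdc20 (chr4:118437344-118437463, minus strand): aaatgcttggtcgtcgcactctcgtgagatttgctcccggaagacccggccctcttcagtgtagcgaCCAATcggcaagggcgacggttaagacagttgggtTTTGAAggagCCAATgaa
Top2a (chr11:99024190-99024309, minus strand): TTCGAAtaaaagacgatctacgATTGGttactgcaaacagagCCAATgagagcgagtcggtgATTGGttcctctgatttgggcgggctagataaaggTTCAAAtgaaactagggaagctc
Espl1 (chr15:102296173-102296292, plus strand): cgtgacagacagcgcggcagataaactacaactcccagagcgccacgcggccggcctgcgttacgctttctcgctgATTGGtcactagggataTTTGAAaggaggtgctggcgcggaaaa
Ncapg (chr5:45669805-45669924, plus strand): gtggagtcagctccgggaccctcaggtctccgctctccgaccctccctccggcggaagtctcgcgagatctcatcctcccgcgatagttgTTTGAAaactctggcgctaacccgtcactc
Mki67 (chr7:135716380-135716499, minus strand): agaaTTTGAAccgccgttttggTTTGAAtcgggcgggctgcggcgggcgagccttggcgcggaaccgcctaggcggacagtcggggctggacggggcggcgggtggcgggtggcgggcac
Mad2l1 (chr6:66535101-66535220, plus strand): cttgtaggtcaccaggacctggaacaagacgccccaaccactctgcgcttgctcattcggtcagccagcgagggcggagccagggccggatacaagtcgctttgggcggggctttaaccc
Nusap1 (chr2:119618178-119618297, plus strand): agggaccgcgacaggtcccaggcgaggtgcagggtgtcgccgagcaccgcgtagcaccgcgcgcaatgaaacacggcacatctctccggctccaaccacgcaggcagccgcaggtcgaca
Matches stood in members that changed and in members that did not pass. A CHR stood in 8 of the 12 members with a window that were lower after GSK-LSD1 and in 26 of the 31 that passed in neither direction. After the combination these counts were 12 of 16 and 22 of 27.

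Library sums, in multiples of each library's value step, lay between 8260995 and 8528400. The chi-square between replicates, per degree of freedom, ran from 1.48 to 7.13 (counting noise alone gives a value near 1), and the 4 highest pairs all held ruxolitinib replicate 2 or combination replicate 3. Both stand apart, and calls of members that were lost or gained without either are named beside the result. All 12 markers of immature granulocytes, the labelled kind of cell, were detected, with a summed value of 22421 to 23509 in DMSO. Csf3r and Cebpa stand on this list, and reads of the introduced mutant genes may enter their values and every sum of the list. Cebpa had the highest mean of the 12, at 9564. The B cell markers summed to at most 7.93 and the T and NK cell markers to at most 14.9 in any library, with Pax5, Ms4a1, Cd4 and Ncr1 at 0 throughout. Of the 7 erythroid markers the haemoglobin genes Hba-a1 and Hbb-bs were at 0 throughout, while Tfrc, the transferrin receptor, which dividing cells of other kinds also carry, had a mean of 3992, and the list summed to 4908 to 5345 in DMSO. Cpa3, a mast cell protease, was high, with a mean of 12044.

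Together the 55 members took 0.923% to 0.939% of the summed values in the DMSO libraries. The share was 0.887% to 0.899% after ruxolitinib, 0.868% to 0.898% after GSK-LSD1 and 0.856% to 0.896% after the combination, so all 9 treated libraries lay below all 3 DMSO libraries. The median member deviated from its DMSO mean by between -0.055 and -0.083 on the log2 scale in the ruxolitinib libraries, between -0.090 and -0.131 in the GSK-LSD1 libraries and between -0.110 and -0.135 in the combination libraries. These are small steps, and no member differed from DMSO by more than 21.5% in any treatment. In such bulk libraries, fewer cells in mitosis and less RNA per cell cannot be told apart.

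**Figure D1:**
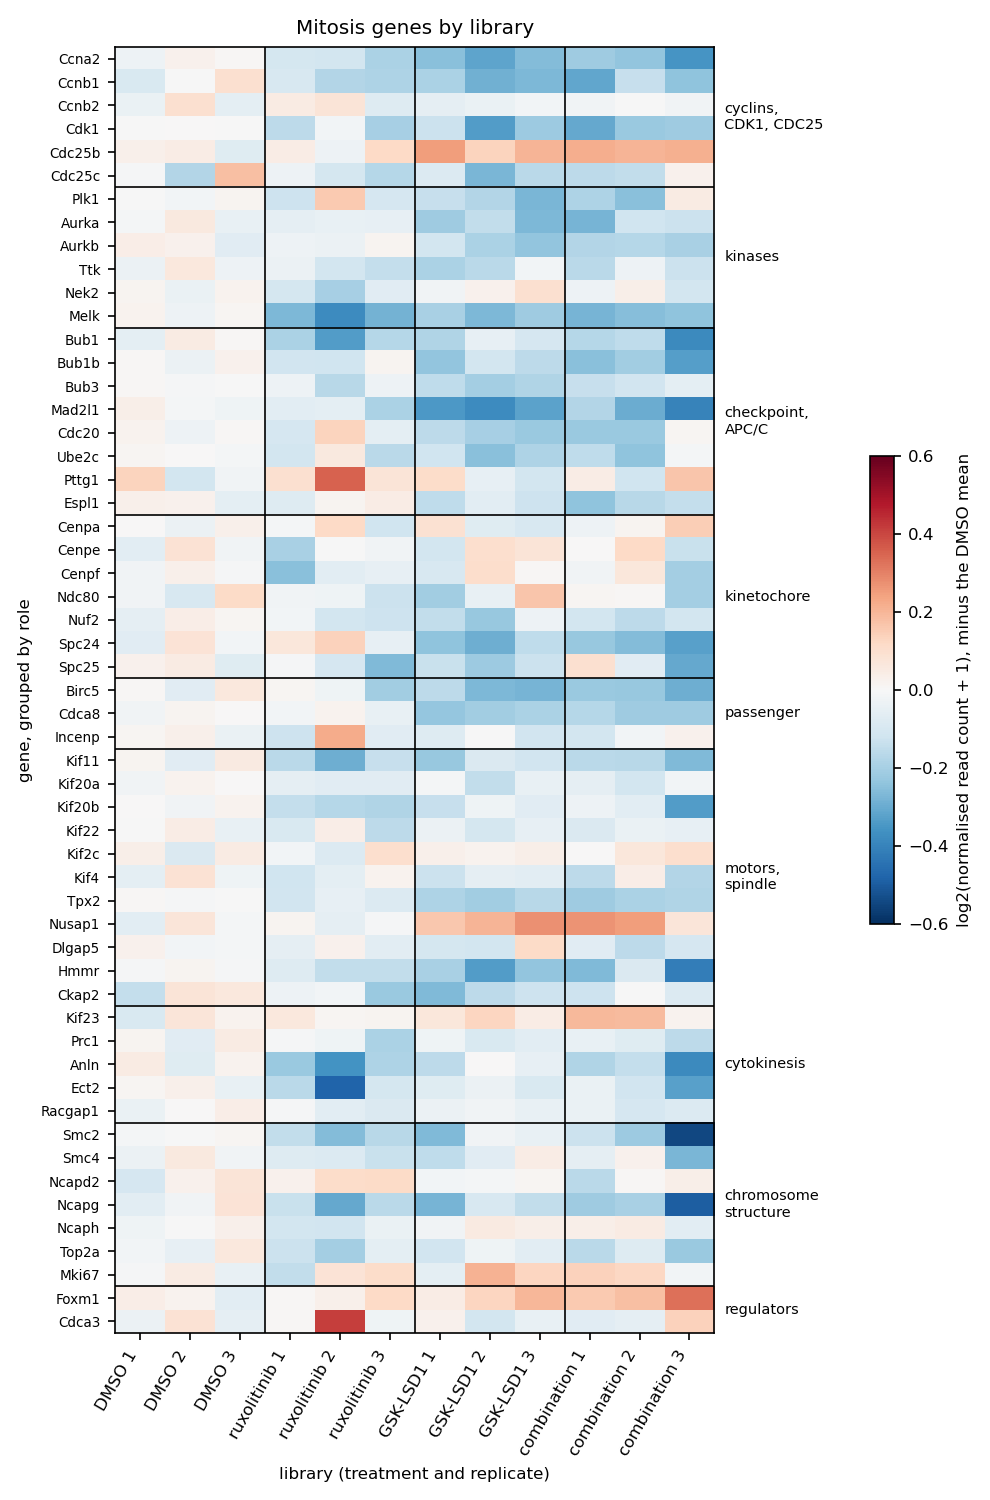
Each row is a mitosis gene, grouped by role, and each column a library; colour gives log2(normalised read count + 1) minus the gene's DMSO mean, blue for lower and red for higher. Ccna2, Mad2l1, Melk and Hmmr are blue in all 6 libraries with GSK-LSD1, Cdc25b is red there, and ruxolitinib replicate 2 and combination replicate 3 differ from the other libraries of their groups at genes such as Ect2, Smc2, Pttg1 and Cdca3.

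Levels also differed among the members. Per kilobase of the longest annotated transcript, Top2a (topoisomerase II alpha, which untangles sister DNA) was the highest in DMSO at 1732 normalised read counts per kilobase, followed by Ccna2 at 1170, Cdc20 at 856, Aurkb at 797 and Plk1 at 752. The lowest were Cenpf at 67.3, Cdc25c at 81.0 and Mad2l1 at 105. The order compares levels, not differences, and depends on which transcript length is used.

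GSK-LSD1 against DMSO asked what blocking LSD1 alone changed. Of the 55 members, 16 fell and 2 rose (limma, adjusted p under 0.05 over all 11484 genes), a share of 29.1% lower. Over all tested genes 15.5% were lower and 17.0% higher. The median over the members was -0.08 against -0.005 over all genes, and 45 of 55 values were negative. The libraries of the 2 groups did not overlap for 23 members on the lower side and 3 on the higher side, where 26.5% and 24.4% of all tested genes did so. By role, 5 of 8 checkpoint and anaphase genes, 3 of 4 passenger genes and 3 of 6 genes of cyclins, CDK1 and CDC25 fell, while 0 of 5 cytokinesis genes and 0 of 7 chromosome structure genes passed the test (limma; 0 and 1 had an unadjusted p under 0.05).

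The count of 16 depended on single libraries. Leaving out DMSO replicate 1 gave 10, and leaving out DMSO replicate 3 gave 8. Leaving out GSK-LSD1 replicate 2 gave 8 and replicate 3 gave 9. Without combination replicate 3, Kif11, Ncapg and Plk1 were lower as well, and without ruxolitinib replicate 2, Kif11 and Plk1. Of the 18 calls, 4 were kept whichever library was left out: Mad2l1, Ccna2, Cdca8 and Tpx2. Markers of mature neutrophils moved with the same treatment, with a summed value over the 9 listed genes in the table of 6072 to 7511 in DMSO and 10905 to 12518 after GSK-LSD1. Of the 8 tested, 4 were higher and 0 lower. Summed monocyte markers went from 621 to 813 up to 1097 to 1136, with 4 of the 6 tested higher. Of 5 mast cell and basophil markers 4 were higher (summed 20709 to 22785 in DMSO and 24205 to 26002 after GSK-LSD1). Of 5 stroma and endothelium markers 3 were tested, and all 3 were higher (3229 to 3351 and 4043 to 4317). Pecam1 was the highest of them with a mean of 3368, and Cdh5 was at 0 throughout. Of 7 erythroid markers 5 were tested, and 3 were lower (summed 3743 to 4188 after GSK-LSD1). Of the 12 immature granulocyte markers 4 were higher and 4 lower. The part of these markers in the result was not tested.

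Against DMSO, ruxolitinib asked what blocking JAK1 and JAK2 changed. Here 1 member fell, Melk, and 0 rose, against 0.627% of all tested genes lower and 1.00% higher. The median over the members was -0.07 against -0.001 over all genes, and again 45 of 55 values were negative, and 11 members had an unadjusted p under 0.05. The libraries did not overlap for 22 members on the lower side and for 0 on the higher side, where 12.8% and 10.9% of all tested genes did so. Of the 12 immature granulocyte markers 4 were higher and 0 lower after ruxolitinib, with a sum of 22421 to 23509 in DMSO and 26537 to 33257 after it. The erythroid sum went from 4908 to 5345 down to 3457 to 4573 with 0 of the 5 tested passing. Among the others, 1 mature neutrophil and 1 mast cell marker were higher, and the part of these markers in the result was not tested. The call of Melk was lost when any DMSO library was left out, and also on leaving out ruxolitinib replicate 1 or 2, GSK-LSD1 replicate 2 or 3, or combination replicate 2. Leaving out combination replicate 3 gave a count of 5 lower, with Anln, Ect2, Bub1 and Kif11 added to Melk.

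After the combination 20 members fell and 3 rose, where 21.8% of all tested genes were lower and 20.5% higher. The share of members lower was 36.4%, the median over the members was -0.11 against -0.010 over all genes, and 45 of 55 values were once more negative. Groups did not overlap for 25 members on the lower side and 2 on the higher side, where 26.8% and 24.9% of all tested genes did so. Of the 23 calls, 12 were kept whichever library was left out: Cdk1, Ccna2, Melk, Mad2l1, Bub1b, Spc24, Birc5, Cdca8, Hmmr, Tpx2, Smc2 and Ncapg. All 3 rises were lost without DMSO replicate 3. Mature neutrophil markers summed to 17103 to 18938 after the combination, with 8 higher and 0 lower, and monocyte markers to 1728 to 1824, with 5 higher. Immature granulocyte markers summed to 29594 to 34593 (6 higher, 1 lower), mast cell markers to 23463 to 25865 (4 higher), stroma and endothelium markers to 4329 to 4377 (2 higher) and erythroid markers to 2926 to 3876 (4 lower). The part of these markers in the result was not tested. The 3 comparisons share the DMSO libraries, so a low or high DMSO value enters all of them.

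**Figure D2:**
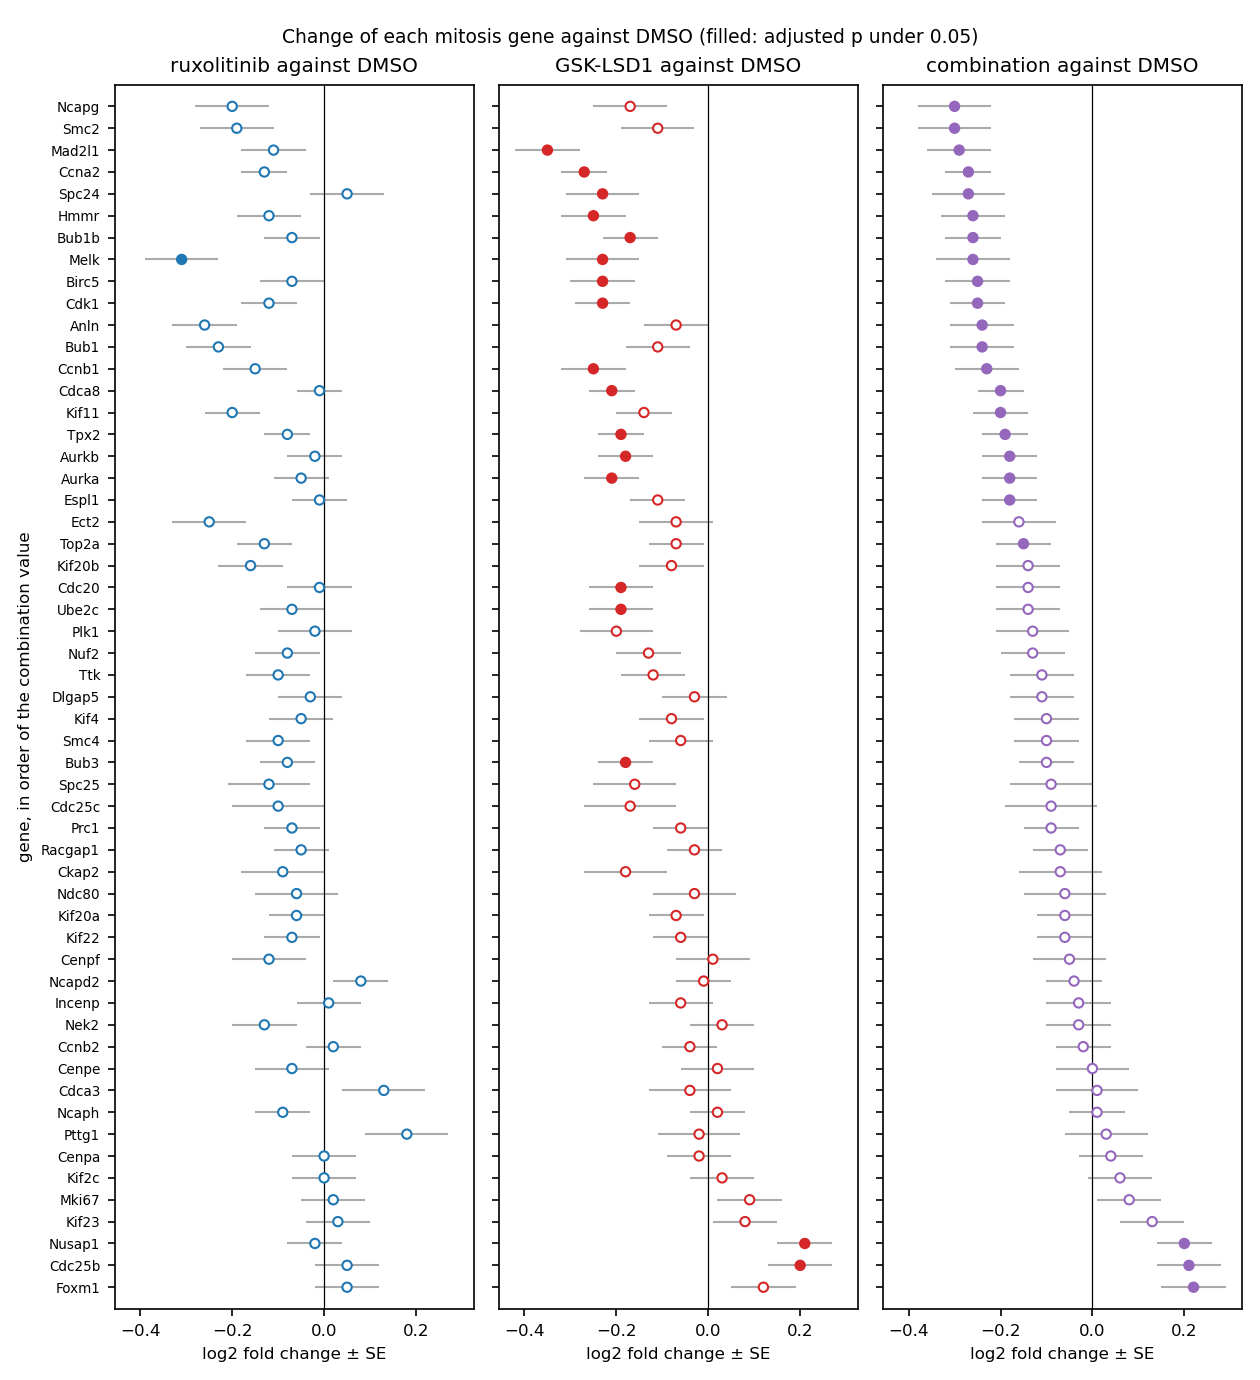
Each row is a mitosis gene in the order of its combination value; points are log2 fold changes against DMSO, bars are SE (n = 3 libraries a group), and filled points have an adjusted p under 0.05. Filled points are 1 after ruxolitinib, 18 after GSK-LSD1 and 23 after the combination, and nearly all lie left of 0 apart from Nusap1, Cdc25b and Foxm1.

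Among the cyclins and their kinase, Ccna2 (cyclin A2, which acts in S phase and at mitotic entry, chr3:36564865-36572150) gave 3394, 3529 and 3480 normalised read counts in DMSO, 3225, 3208 and 3043 after ruxolitinib, 2914, 2788 and 2898 after GSK-LSD1 and 2988, 2945 and 2711 after the combination. The libraries of each treatment lay below all DMSO libraries, and all 6 with GSK-LSD1 lay below all 3 with ruxolitinib alone. It fell by 17.3% after GSK-LSD1 (log2 fold change -0.27 ± 0.05 SE, adjusted p = 0.000608, limma) and by 17.0% after the combination (-0.27 ± 0.05, adjusted p = 0.00047), while the value after ruxolitinib was -0.13 ± 0.05 (adjusted p = 0.203). Against ruxolitinib, Ccna2 did not pass after GSK-LSD1 (-0.14 ± 0.05, adjusted p = 0.0651, limma) or the combination (-0.13 ± 0.05, adjusted p = 0.0676, limma). Exons of Ccna2 overlap Exosc9 on the other strand.

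Cdk1 (the kinase that cyclins A and B activate, chr10:69335146-69352938) gave 1321, 1324 and 1319 in DMSO, 1184, 1307 and 1152 after ruxolitinib, 1207, 1047 and 1136 after GSK-LSD1 and 1069, 1132 and 1139 after the combination. The 3 DMSO libraries were nearly equal (1321 ± 2.71 SD) and above all 9 others. Cdk1 fell by 14.6% after GSK-LSD1 (-0.23 ± 0.06, adjusted p = 0.00988) and by 15.8% after the combination (-0.25 ± 0.06, adjusted p = 0.00396), and the GSK-LSD1 call was lost without GSK-LSD1 replicate 2. Ccnb1 (cyclin B1, chr13:100778650-100786570) was 574.0, 609.2 and 652.6 in DMSO, 572.0, 540.4 and 537.6 after ruxolitinib, 535.5, 499.6 and 507.6 after GSK-LSD1 and 492.0, 554.4 and 516.1 after the combination. No treated library reached the lowest DMSO library, though 572.0 and 574.0 nearly met. Ccnb1 fell by 15.9% after GSK-LSD1 (-0.25 ± 0.07, adjusted p = 0.0108) and by 14.8% after the combination (-0.23 ± 0.07, adjusted p = 0.0125), and both calls were lost without DMSO replicate 3, the second also without combination replicate 1.

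Ccnb2 (cyclin B2, chr9:70407692-70421547) passed no test. Its values were 1079, 1188 and 1066 in DMSO and 1070, 1079 and 1097 after GSK-LSD1, with overlapping groups, and its log2 fold changes were 0.02, -0.04 and -0.02 after ruxolitinib, GSK-LSD1 and the combination (± 0.06 each). The difference between both cyclins' responses was not tested. The phosphatase Cdc25b (chr2:131186949-131198497), which removes the inhibitory phosphates from CDK1, went the other way: 602.8, 609.2 and 561.5 in DMSO, 609.8, 578.5 and 642.3 after ruxolitinib, 703.4, 647.9 and 680.1 after GSK-LSD1 and 688.3, 680.7 and 685.2 after the combination. All 6 libraries with GSK-LSD1 lay above all 6 without it. Cdc25b rose by 14.5% after GSK-LSD1 (0.20 ± 0.07, adjusted p = 0.0271) and by 15.9% after the combination (0.21 ± 0.07, adjusted p = 0.0129); leaving out replicate 1 or 3 of either group ended the first call, and leaving out DMSO replicate 3 ended the second. Against ruxolitinib, Cdc25b did not pass after GSK-LSD1 (0.15 ± 0.07, adjusted p = 0.099, limma) or the combination (0.17 ± 0.07, adjusted p = 0.0578, limma). Its exons overlap Spef1 on the other strand. Cdc25c, of the same family, passed no test (-0.17 ± 0.10 after GSK-LSD1).

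Of the kinases, Melk (maternal embryonic leucine zipper kinase, a proliferation-linked kinase, chr4:44300876-44364675) was the member that passed in all 3 comparisons with DMSO. Its values were 363.5, 350.1 and 360.4 in DMSO, 296.5, 275.4 and 293.5 after ruxolitinib, 312.7, 296.6 and 309.1 after GSK-LSD1 and 294.6, 299.9 and 302.3 after the combination. The 9 treated libraries all lay below the 3 DMSO libraries. Combination libraries overlapped both single treatments, which nearly met at 296.5 after ruxolitinib and 296.6 after GSK-LSD1. Melk fell by 19.4% after ruxolitinib (-0.31 ± 0.08, adjusted p = 0.0369), by 14.5% after GSK-LSD1 (-0.23 ± 0.08, adjusted p = 0.0256) and by 16.4% after the combination (-0.26 ± 0.08, adjusted p = 0.00834).

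Aurkb (aurora kinase B, the enzyme of the chromosomal passenger complex, chr11:69045647-69051664) gave 1595, 1582 and 1482 in DMSO, 1519, 1515 and 1571 after ruxolitinib, 1436, 1359 and 1315 after GSK-LSD1 and 1373, 1377 and 1356 after the combination. Ruxolitinib libraries overlapped DMSO, and all 6 libraries with GSK-LSD1 lay below both groups. Aurkb fell by 11.8% after GSK-LSD1 (-0.18 ± 0.06, adjusted p = 0.0174) and by 11.8% after the combination (-0.18 ± 0.06, adjusted p = 0.013). Both calls were lost without DMSO replicate 1 or 2, the first also without GSK-LSD1 replicate 2 or 3. Aurka, which builds the spindle poles, fell by 13.5% after GSK-LSD1 (adjusted p = 0.0139) and by 11.5% after the combination (adjusted p = 0.0281). The first call was lost without DMSO replicate 2 or GSK-LSD1 replicate 3, the second without DMSO replicate 1 or 2 or combination replicate 1.

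Plk1 (polo-like kinase 1, which acts from entry to division, chr7:122159439-122169873) gave 1652, 1634 and 1673 in DMSO, 1516, 1846 and 1539 after ruxolitinib, 1503, 1465 and 1365 after GSK-LSD1 and 1452, 1391 and 1708 after the combination. Its GSK-LSD1 libraries lay below DMSO, and ruxolitinib replicate 2 and combination replicate 3 were the highest of the 12. Plk1 did not pass in any comparison with DMSO (GSK-LSD1 -0.20 ± 0.08, adjusted p = 0.0582; combination -0.13 ± 0.08, adjusted p = 0.188). Without combination replicate 3 it was lower after GSK-LSD1 and after the combination. Ttk (the checkpoint kinase MPS1) and Nek2 (a centrosome kinase) passed no test, with -0.12 and 0.03 after GSK-LSD1.

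The spindle checkpoint and anaphase group held the largest single difference. Mad2l1 (MAD2, which locks CDC20 while kinetochores are unattached, chr6:66535390-66547220) gave 813.3, 787.2 and 777.3 in DMSO, 758.1, 760.3 and 693.7 after ruxolitinib, 624.4, 609.1 and 633.2 after GSK-LSD1 and 701.2, 644.2 and 599.7 after the combination. All treated libraries lay below DMSO, and the GSK-LSD1 libraries also lay below all ruxolitinib libraries. Mad2l1 fell by 21.5% after GSK-LSD1 (-0.35 ± 0.07, adjusted p = 0.000517) and by 18.3% after the combination (-0.29 ± 0.07, adjusted p = 0.00161). It was also lower after GSK-LSD1 than after ruxolitinib (-0.24 ± 0.07, adjusted p = 0.0115), a call lost without GSK-LSD1 replicate 2.

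The partners of MAD2 in the checkpoint, BUBR1 and BUB3, were lower after GSK-LSD1 as well. Bub1b (BUBR1) fell by 11% (-0.17 ± 0.06, adjusted p = 0.0295), and Bub3 by 11.6% (-0.18 ± 0.06, adjusted p = 0.018); each call was lost in 4 of the 12 fits that left out 1 library. After the combination Bub1b fell by 16.7% (adjusted p = 0.000938), and Bub3 at -0.10 ± 0.06 did not pass. Bub1 (the kinase that brings the checkpoint to kinetochores, chr2:127801122-127831865) gave 857.0, 921.2 and 897.2 in DMSO, 782.0, 706.9 and 792.5 after ruxolitinib, 787.3, 861.9 and 830.7 after GSK-LSD1 and 791.5, 801.0 and 683.2 after the combination. Ruxolitinib and combination libraries lay below DMSO, and GSK-LSD1 replicate 2 overlapped it. Bub1 fell by 15.1% after the combination (-0.24 ± 0.07, adjusted p = 0.0114), a call lost without DMSO replicate 2 or combination replicate 3. Its change after ruxolitinib was -0.23 ± 0.07 (adjusted p = 0.102).

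Bub3 (chr7:131560222-131571895) gave 1903, 1884 and 1888 in DMSO, 1853, 1684 and 1851 after ruxolitinib, 1704, 1644 and 1669 after GSK-LSD1 and 1717, 1746 and 1817 after the combination. Each treated group lay below DMSO, and ruxolitinib replicate 2 fell among the GSK-LSD1 libraries. Of the activators of the anaphase promoting complex, Cdc20 fell by 12.5% (adjusted p = 0.0388) and Ube2c, its ubiquitin-conjugating enzyme, by 12.1% (adjusted p = 0.0391) after GSK-LSD1. Both calls stood near the threshold and ended when any DMSO library or replicate 2 or 3 of GSK-LSD1 was left out, Cdc20 also on leaving out GSK-LSD1 replicate 1. Their exons overlap Elovl1 and Tnnc2 on the other strand. After the combination neither passed, with values of -0.14 ± 0.07 each, and combination replicate 3, at 1546 for Cdc20 and 1582 for Ube2c, lay far above replicates 1 and 2, at 1313 and 1316 for Cdc20. Without that replicate both were lower than in DMSO.

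Espl1 (separase, which cuts cohesin, chr15:102296266-102324357) fell by 12% after the combination (-0.18 ± 0.06, adjusted p = 0.0139), and its value after GSK-LSD1 was -0.11 ± 0.06. The combination call was lost without DMSO replicate 1 or 2 or combination replicate 1. Pttg1 (securin, which holds separase back) passed no test. Its values were 429.0, 362.1 and 385.2 in DMSO and 418.8, 500.4 and 413.1 after ruxolitinib, where replicate 2 alone was above all other libraries.

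**Figure D3:**
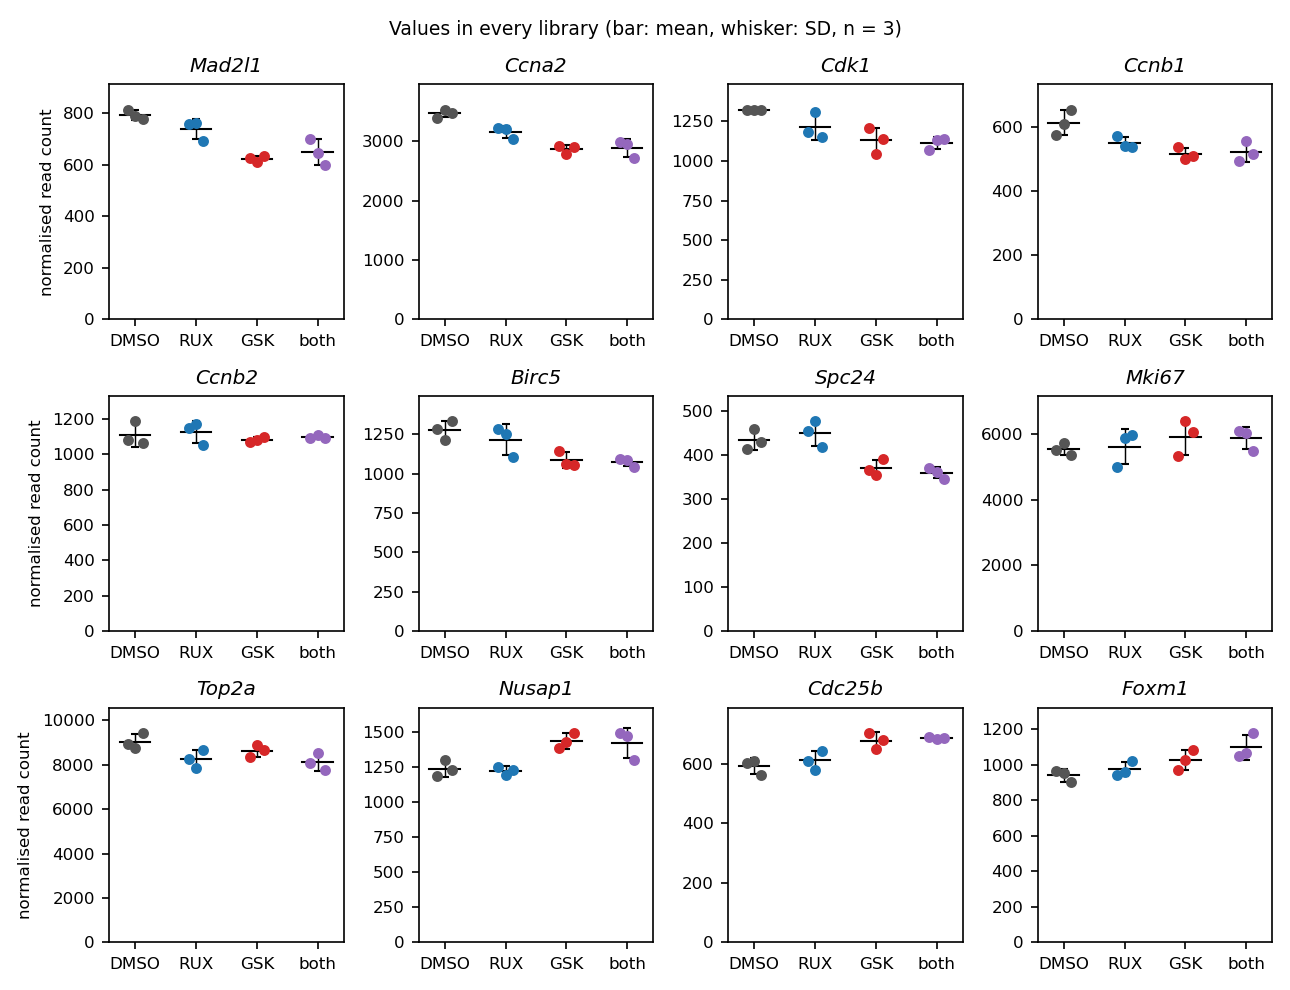
Normalised read counts of 12 mitosis genes in every library; RUX is ruxolitinib, GSK is GSK-LSD1, both is the combination, bars are means and whiskers SD (n = 3). Mad2l1, Ccna2, Cdk1, Birc5 and Spc24 lie below DMSO in all libraries with GSK-LSD1, Ccnb2 and Mki67 overlap DMSO, and Cdc25b lies above.

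Of the 7 kinetochore and centromere genes only Spc24 passed. Among all tested genes 15.5% were lower after GSK-LSD1 and 21.8% after the combination. Spc24 (chr9:21755442-21760303) is a subunit of the NDC80 complex, which grips microtubule ends. It gave 414.1, 459.1 and 428.8 in DMSO, 454.7, 476.7 and 419.0 after ruxolitinib, 366.7, 353.3 and 389.9 after GSK-LSD1 and 370.0, 362.0 and 346.1 after the combination. The 6 libraries with GSK-LSD1 all lay below the 6 without. It fell by 14.7% after GSK-LSD1 (-0.23 ± 0.08, adjusted p = 0.0258) and by 17.1% after the combination (-0.27 ± 0.08, adjusted p = 0.00715). Leaving out replicate 2 or 3 of DMSO, or 1 or 2 of GSK-LSD1, ended the GSK-LSD1 call. The other 3 subunits did not pass: Spc25 at -0.16, Nuf2 at -0.13 and Ndc80 at -0.03 after GSK-LSD1. Cenpa (the centromeric histone), Cenpe (a kinetochore motor) and Cenpf lay between -0.02 and 0.02 after GSK-LSD1.

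In the chromosomal passenger complex, which corrects faulty attachments and then moves to the midzone, 3 of 4 subunits fell after GSK-LSD1 and the same 3 after the combination: Birc5, Cdca8 and Aurkb. Over all tested genes 15.5% were lower after GSK-LSD1 and 21.8% after the combination. Birc5 (survivin, chr11:117849251-117855743) gave 1282, 1216 and 1334 in DMSO, 1287, 1255 and 1104 after ruxolitinib, 1143, 1060 and 1053 after GSK-LSD1 and 1092, 1089 and 1042 after the combination. Libraries with GSK-LSD1 lay below all DMSO libraries, while 2 of 3 ruxolitinib libraries lay among them. Birc5 fell by 15% after GSK-LSD1 (-0.23 ± 0.07, adjusted p = 0.00913), a call lost without DMSO replicate 3, and by 15.8% after the combination (-0.25 ± 0.07, adjusted p = 0.0044). Cdca8 (borealin, whose exons overlap 9930104L06Rik on the other strand) fell by 13.6% after GSK-LSD1 (-0.21 ± 0.05, adjusted p = 0.00516) and by 12.9% after the combination (adjusted p = 0.00566). The scaffold Incenp passed no test, at -0.06 and -0.03.

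Among 11 spindle motors and microtubule-binding genes, Hmmr and Tpx2 fell and Nusap1 rose after GSK-LSD1. The shares over all tested genes were 15.5% lower and 17.0% higher. Hmmr (RHAMM, a spindle pole protein, chr11:40701395-40733422) gave 1041, 1058 and 1040 in DMSO, 991.9, 944.2 and 944.7 after ruxolitinib, 915.2, 829.1 and 888.5 after GSK-LSD1 and 869.8, 986.5 and 784.7 after the combination. All treated libraries lay below DMSO, and the combination libraries were the most spread. Hmmr fell by 16.2% after GSK-LSD1 (-0.25 ± 0.07, adjusted p = 0.00967), a call lost without GSK-LSD1 replicate 2, and by 16.2% after the combination (-0.26 ± 0.07, adjusted p = 0.00694). Tpx2, which activates aurora A on spindle microtubules, fell by 12.2% and 12.6% (adjusted p = 0.00793 and adjusted p = 0.00432).

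Nusap1 (nucleolar and spindle associated protein, which bundles microtubules near chromosomes, chr2:119618298-119651244) gave 1186, 1304 and 1230 in DMSO, 1252, 1193 and 1234 after ruxolitinib, 1386, 1427 and 1497 after GSK-LSD1 and 1492, 1475 and 1303 after the combination. GSK-LSD1 libraries lay above all libraries without it, while combination replicate 3 met the DMSO range. Nusap1 rose by 15.9% after GSK-LSD1 (0.21 ± 0.06, adjusted p = 0.0136) and by 14.6% after the combination (0.20 ± 0.06, adjusted p = 0.0162). The first call did not hold without DMSO replicate 1 or GSK-LSD1 replicate 3, nor the second without DMSO replicate 1 or 3 or combination replicate 1 or 2. Its exons overlap Oip5 on the other strand. Kif11 (the motor that pushes spindle poles apart) fell by 12.9% after the combination (-0.20 ± 0.06, adjusted p = 0.0126), a call lost without DMSO replicate 3. The other 7 of this group, Kif20a, Kif20b, Kif22, Kif2c, Kif4, Dlgap5 and Ckap2, passed no test and lay between -0.18 and 0.03 after GSK-LSD1.

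Of the 5 cytokinesis genes 1 passed, after the combination, where 21.8% of all tested genes were lower and 20.5% higher. Anln (anillin, a scaffold of the contractile ring, chr9:22332012-22389188) gave 929.5, 854.2 and 909.0 in DMSO, 769.0, 699.7 and 788.6 after ruxolitinib, 803.3, 898.8 and 867.6 after GSK-LSD1 and 791.5, 812.9 and 687.2 after the combination. Libraries with ruxolitinib, alone or combined, lay below DMSO, and those with GSK-LSD1 alone overlapped it. It fell by 15.1% after the combination (-0.24 ± 0.07, adjusted p = 0.0136), a call lost without DMSO replicate 1 or combination replicate 3, and its value after ruxolitinib was -0.26 ± 0.07 (adjusted p = 0.0788).

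Ect2 (which activates RhoA at the midzone, chr3:27097222-27153878) gave 1461, 1479 and 1406 in DMSO, 1293, 1039 and 1347 after ruxolitinib, 1376, 1413 and 1361 after GSK-LSD1 and 1411, 1339 and 1155 after the combination. Ruxolitinib replicate 2 was the lowest library and combination replicate 3 the next lowest. Ect2 did not pass, at -0.25 ± 0.08 after ruxolitinib (adjusted p = 0.121) and -0.16 ± 0.08 after the combination, where it was lower without ruxolitinib replicate 2 (adjusted p = 0.045) and stood at -0.07 without combination replicate 3. Kif23 and Racgap1 (the centralspindlin pair) and Prc1 (which crosslinks midzone microtubules) passed no test, with 0.08, -0.03 and -0.06 after GSK-LSD1. Kif23 gave 614.7, 690.2 and 665.4 in DMSO and 749.8, 747.8 and 666.3 after the combination, and without combination replicate 3 it was higher there (0.19, adjusted p = 0.0296).

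In the chromosome structure group, 2 of 5 condensin I subunits fell after the combination, where 21.8% of all tested genes were lower. Smc2 (an ATPase core of both condensins, chr4:52439243-52488260) gave 2470, 2484 and 2510 in DMSO, 2244, 2076 and 2216 after ruxolitinib, 2072, 2454 and 2412 after GSK-LSD1 and 2272, 2140 and 1702 after the combination. All treated libraries lay below DMSO, with combination replicate 3 far below the rest. Smc2 fell by 18.7% after the combination (-0.30 ± 0.08, adjusted p = 0.00614), and stood at -0.17 without that replicate (adjusted p = 0.0376). Ncapg (a regulatory subunit, chr5:45669919-45700546) gave 1033, 1067 and 1146 in DMSO, 983.9, 874.4 and 965.5 after ruxolitinib, 892.2, 1012 and 974.3 after GSK-LSD1 and 931.3, 944.1 and 766.8 after the combination. It too was lowest in combination replicate 3, and fell by 18.9% (-0.30 ± 0.08, adjusted p = 0.00394) and stood at -0.20 without that replicate (adjusted p = 0.0231). Both calls were kept whichever library was left out, but the values of Ncapg and Smc2, the lowest of the 55 after the combination, were not the lowest without replicate 3, where Melk (-0.27) and Cdk1 (-0.26) were. Smc4, Ncapd2 and Ncaph passed no test, with -0.10, -0.04 and 0.01 after the combination.

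Top2a (chr11:98992943-99024189) gave 8938, 8744 and 9448 in DMSO, 8279, 7850 and 8666 after ruxolitinib, 8358, 8891 and 8650 after GSK-LSD1 and 8075, 8554 and 7750 after the combination. Ruxolitinib and combination libraries lay below DMSO, and GSK-LSD1 replicate 2 lay within it. Top2a fell by 10.2% after the combination (-0.15 ± 0.06, adjusted p = 0.0364), a call that ended on leaving out DMSO replicate 1 or 3, combination replicate 1 or 3, or GSK-LSD1 replicate 3. Mki67 (Ki-67, the coat of mitotic chromosomes, chr7:135689784-135716361) gave 5520, 5735 and 5368 in DMSO, 5006, 5870 and 5974 after ruxolitinib, 5326, 6398 and 6055 after GSK-LSD1 and 6093, 6040 and 5485 after the combination. Every treated group overlapped DMSO. Mki67 passed no test, with 0.02 ± 0.07, 0.09 ± 0.07 and 0.08 ± 0.07.

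Foxm1 (a transcription factor that activates genes of this phase, chr6:128362967-128376146) gave 964.3, 953.2 and 899.1 in DMSO, 942.1, 959.6 and 1019 after ruxolitinib, 967.1, 1026 and 1079 after GSK-LSD1 and 1046, 1063 and 1179 after the combination. GSK-LSD1 and combination libraries lay above DMSO, the lowest of them by little. Foxm1 rose by 16.7% after the combination (0.22 ± 0.07, adjusted p = 0.00927), a call lost without DMSO replicate 3, and its value after GSK-LSD1 was 0.12 ± 0.07 (adjusted p = 0.155). It shares exons with Tex52 on the same strand. Cdca3, which helps to degrade a brake on mitotic entry, passed no test, and ruxolitinib replicate 2 at 1344 was its highest library.

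Next, the treatments with GSK-LSD1 were compared with ruxolitinib. Spc24, Bub1b, Mad2l1, Cdca8, Espl1, Birc5 and Aurkb, 7 members (12.7%), were lower after the combination than after ruxolitinib, and Nusap1 was higher. Over all genes 15.6% were lower and 16.0% higher, so both member shares were under those of all genes. Spc24 differed by -0.32 ± 0.08 (adjusted p = 0.00274), Cdca8 by -0.18 ± 0.05 (adjusted p = 0.0132) and Nusap1 by 0.21 ± 0.06 (adjusted p = 0.014). The count lower was 4 without combination replicate 1, and the count higher was 0 without combination replicate 2 and 3 without ruxolitinib replicate 3. Fitted on only the groups compared, 1 was lower, Spc24, and 0 higher, so 7 of the 8 calls were lost (adjusted p from 0.0618 to 0.13). Without 1 library, the calls of Birc5 and Mad2l1 were kept in 1 and 3 of 12 fits. Both were lost without ruxolitinib replicate 2 and without combination replicate 3, and in the latter Cdc20 and Plk1 were lower. The split of 7 lower and 1 higher was 2 and 3 with quantile normalisation and 4 and 3 with equal library totals. GSK-LSD1 against ruxolitinib gave 4 lower (7.27%), Spc24, Mad2l1, Cdca8 and Aurkb, and Nusap1 higher (0.23 ± 0.06, adjusted p = 0.011). These shares too were under those of all genes, 11.8% lower and 13.6% higher. Leaving out GSK-LSD1 replicate 2 gave 1 lower, and leaving out combination replicate 3 gave 8 lower and 3 higher, with Aurka, Ccna2, Cdc20 and Plk1 added on the lower side and Ect2 and Anln on the higher. The count higher was 0 on leaving out GSK-LSD1 replicate 3, and 2 on leaving out GSK-LSD1 replicate 1 or ruxolitinib replicate 3.

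Adding ruxolitinib to GSK-LSD1 gave no call among the members: 0 were lower and 0 higher (limma), against 0.348% and 1.05% of all tested genes. With an unadjusted p under 0.05 were 2 members, Smc2 (-0.19, unadjusted p = 0.0324, limma) and Anln (-0.17, unadjusted p = 0.0336, limma), and Bub1 followed at -0.13. The values in each library are those given above, where combination replicate 3 was the lowest of the 3 for all of them. The interaction of both drugs, the combination minus the sum of the single effects on the log2 scale, passed for 0 members in either direction (limma), against 0% of all genes lower and 0.00871% higher. Only Melk had an unadjusted p under 0.05, with an interaction of 0.28 ± 0.11 SE (unadjusted p = 0.0162, limma): its combination value was less low than the sum of both single values. Bub3 and Ccna2 came next at 0.15 and 0.14. The interaction was positive for 45 of 55 members, with a median of 0.06 against -0.005 over all genes. DMSO values enter it with a plus sign and both single effects with a minus sign. A high DMSO value thus lowers the single effects and raises the interaction. The genes share these libraries and are not replicates, so the count is a description. In the F-test over all 4 treatments, 22 of 55 members passed (limma), where 42.8% of all tested genes did, and the count was 14 without DMSO replicate 2.

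GC content moved with part of these values. The members' longest transcripts held 34.8% to 56.1% GC, with a median of 46.6% against 49.7% over all tested genes. Across the 55 members the ruxolitinib values followed GC with a Spearman rho of 0.683 (0.415 across 11053 genes with a GC value), whereas the GSK-LSD1 values gave 0.077 (0.110) and the combination values 0.263 (0.205). The genes of a library share its depth and its handling and are not replicates, so these are descriptions. Within groups, the deviation of combination replicate 3 followed GC across members with a rho of 0.72 and ruxolitinib replicates 1 and 2 with -0.64 and 0.38. Combination replicates 1 and 2 gave -0.63 and -0.53. Each deviation is from the mean of its own group, so a high library makes the others low and these values are not independent. With each library's relation to GC taken off, the ruxolitinib median was -0.046, and Melk stood at -0.26 after ruxolitinib (adjusted p = 0.0506; from 0.0181 to 0.152 over all 23 alternatives). Whether GC or the drug set these values was not tested.

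**Figure D4:**
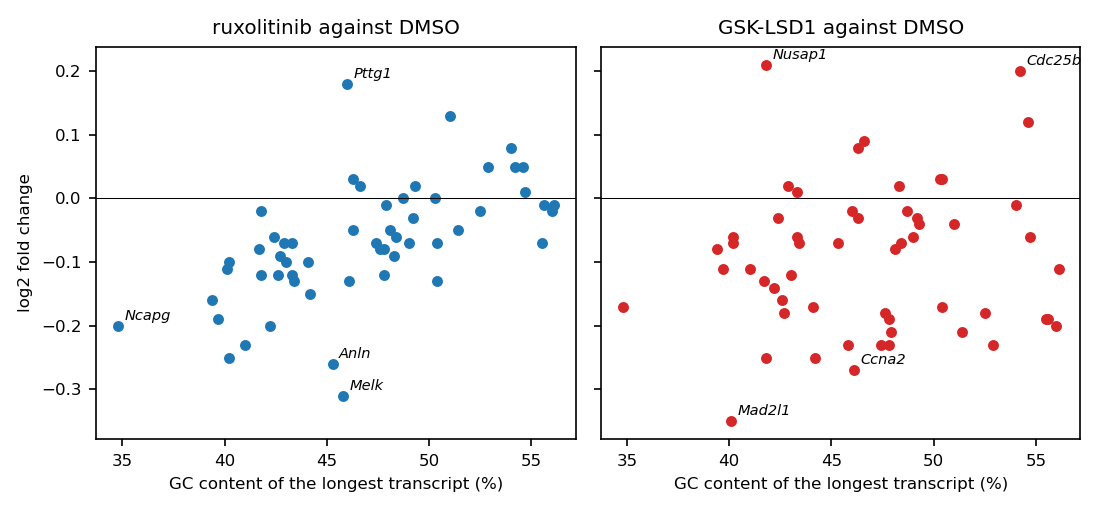
Log2 fold change of each of the 55 mitosis genes against the GC content of its longest transcript, after ruxolitinib (left) and GSK-LSD1 (right). The ruxolitinib values climb with GC content (rho 0.683) while those after GSK-LSD1 are spread at every GC content (rho 0.077).

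After the same correction Plk1, at 56.0% GC, was lower after GSK-LSD1 (-0.24, adjusted p = 0.00135) and after the combination (-0.21, adjusted p = 0.00312), where it had not passed before. Espl1 was lower after GSK-LSD1 (-0.15, adjusted p = 0.0268). Cdc20 and Ube2c were lower after the combination, at -0.22 and -0.21, and Kif23 was higher (0.18, adjusted p = 0.0166). Ncapg, the member with the least GC at 34.8%, went from -0.30 to -0.16 after the combination and kept its call (adjusted p = 0.0231), and Smc2 went from -0.30 to -0.19 (adjusted p = 0.00485). Hmmr went from -0.26 to -0.17, Bub1 from -0.24 to -0.14 and Mad2l1 from -0.29 to -0.19 after the combination and kept their calls, and Spc24 had the lowest value there at -0.31. Kif11, Ccnb1, Top2a and Cdc25b lost their combination calls. Mad2l1 after GSK-LSD1 stayed at -0.31 (adjusted p = 0.000357).

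Other genes of the mitotic machinery were counted in the same comparisons, where 15.5% of all tested genes were lower after GSK-LSD1 and 21.8% after the combination. Of 17 subunits and regulators of the anaphase promoting complex 1 fell after GSK-LSD1 (5.88%), Ube2s at -0.42 ± 0.11 (adjusted p = 0.00607), and 6 after the combination (35.3%). Of 31 further kinetochore and centromere genes 4 fell after GSK-LSD1 (12.9%, under the share of all genes) and 9 after the combination (29%), among them Cenph (-0.41 and -0.38) and Spdl1 (-0.25 and -0.36), and 0 rose in both. Of 10 cohesin genes 1 fell after GSK-LSD1, Cdca5 (sororin) at -0.25 ± 0.07 (10%), and 6 after the combination (60%). Of 3 condensin II subunits 1 fell after GSK-LSD1 and 2 after the combination, Ncapg2 by the most at -0.41. Of 22 motors and midzone genes 5 fell after GSK-LSD1 (22.7%) and 8 after the combination (36.4%), among them Sapcd2 at -0.48 and -0.60. This list holds Kif20a, a member that passed no test, and Cep55, which is also counted with the spindle pole genes. Of 17 spindle pole and centriole genes 2 fell (11.8%) and 1 rose after each, Plk4 at -0.31 and -0.49 and Numa1 at 0.19 and 0.31. After ruxolitinib, where 0.627% of all tested genes were lower and 1.00% higher, 0 genes of these lists passed (limma), with 3, 5, 4, 1, 4 and 1 at an unadjusted p under 0.05.

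Genes that control mitotic entry passed in both directions after GSK-LSD1, where 15.5% of all tested genes were lower and 17.0% higher. Of 12, 3 fell (25%), Cdc25a (-0.35 ± 0.06, adjusted p = 0.00022), Bora (-0.31 ± 0.07, adjusted p = 0.00167) and Chek1, and 2 rose, Cdkn1b (p27, 0.34 ± 0.07, adjusted p = 0.00125) and Gadd45a. Cdc25a and Cdc25b, phosphatases of 1 family, thus changed in opposite directions. Of 12 genes of the DREAM and MuvB complexes and B-MYB, 3 fell after GSK-LSD1 (25%), Mybl2 (B-MYB, -0.40 ± 0.08, adjusted p = 0.000382), E2f4 (-0.38 ± 0.07) and Tfdp1 (-0.31 ± 0.06), and Rbl2 (p130) rose. Mybl2 gave 706 ± 13.2 in DMSO, 661 ± 29 after ruxolitinib, 535 ± 7.5 after GSK-LSD1 and 469 ± 53.6 after the combination (SD, n = 3), where its value was -0.60 ± 0.08 (adjusted p = 2.29e-06). Among 10 tested genes of quiescence and cell cycle exit, which hold Cdkn1b and Rbl2 too, 5 rose and 0 fell after GSK-LSD1 (against 17.0% and 15.5% of all tested genes), with Ccng2 (cyclin G2) at 0.98 ± 0.10, Btg2 at 0.61 ± 0.09 and Btg1 at 0.42 ± 0.08.

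Genes of DNA replication, which act before mitosis, were set beside the members. Of 29, 24 fell after GSK-LSD1 (82.8%, against 15.5% of all tested genes) with a median of -0.27, and 28 after the combination (96.6%, against 21.8%) with a median of -0.34, where the medians over the 55 members were -0.08 and -0.11. After ruxolitinib 2 fell (6.9%, against 0.627%), Hells and Rrm2, and the median was -0.09. Hells, a chromatin remodeller, was 1484 ± 54.9 in DMSO and 1125 ± 46 after GSK-LSD1 (-0.40 ± 0.06, adjusted p = 4.72e-05), and Pcna, the sliding clamp, 2035 ± 56.9 and 1629 ± 89.3 (-0.32 ± 0.06, adjusted p = 0.000174). The difference between the lists was not tested.

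**Figure D5:**
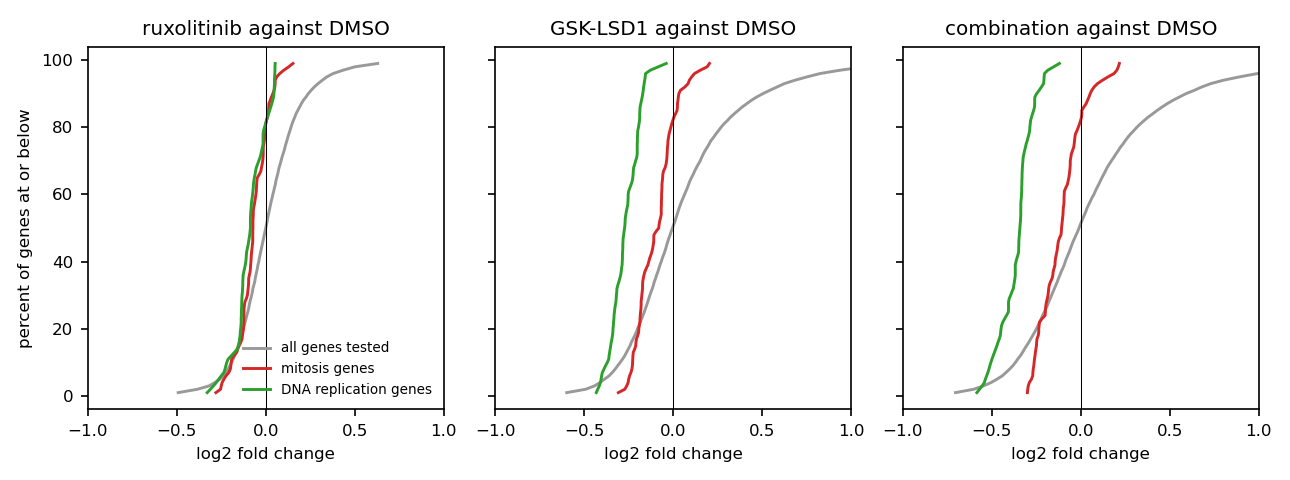
Share of genes (percent) at or below each log2 fold change, for all 11484 tested genes (grey), the 55 mitosis genes (red) and 29 DNA replication genes (green), in each comparison with DMSO. After GSK-LSD1 and the combination the green curve lies left of the red one (medians -0.27 and -0.34 against -0.08 and -0.11), and after ruxolitinib both lie close together (medians -0.09 and -0.07).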

How the data were processed

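Total RNA of 12 libraries was taken up with the RNeasy micro kit and made into libraries by BGI, per the labels' protocols. The deposited table holds a normalised signal per gene and library, in which the authors added 1e-05 to every value; apart from it, a library's values lie within 0.01 of whole multiples of its own step, as scaled read counts do. The submitters' processing notes name STAR, DESeq2, mm10 and GRCm38; versions, the counting program and strandedness are not given in the sources used here. The constant was taken off. No count model was run, because whole reads were not taken as recovered.

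Genes with a mean of at least 10 over the 12 libraries (11484 of 24411 rows, 7367 of them at 0) were fitted as log2(value + 1) with limma 3.58.1 (R 4.3.3), a mean per group and a variance trend, with 8 residual degrees of freedom. All adjusted p-values are Benjamini-Hochberg over all genes of a comparison, two-sided, with a threshold of 0.05; unadjusted ones are named as such. Fold changes are on the log2(value + 1) scale, and percents are derived from them. The fit was tested on simulated data with known fold changes and the same spread for every gene. No simulated library stood apart, so this test does not cover libraries such as ruxolitinib replicate 2 and combination replicate 3. Values are means ± SD or log2 fold changes ± SE, n = 3.

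The members, roles, lists, motifs and genes given in full were chosen with earlier results of these data known. Values of every library are given for the largest differences, all rises, 7 anchor genes and the smallest p-values of the comparisons between drugs. Positions and overlaps are from GENCODE vM21 and promoters from RefSeq, both matched by symbol. Where exons of another gene overlap on either strand, reads may be shared. Alternatives changed the pseudocount, filter, scaling, samples in the fit, GC content and replicate block, and left out libraries.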

Additional observations from a re-analysis of the deposited data

How the results depend on the processing

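All 55 members lay above the filter on low values, and the number of libraries, 3 a group, limits the precision. The median of the members stayed negative in all 3 comparisons with DMSO under every alternative run. After ruxolitinib, GSK-LSD1 and the combination, the median over all genes was -0.005, -0.039 and -0.042 with quantile normalisation. With equal library totals it was 0.009, 0.010 and 0.018. Leaving out a library moved the count lower after ruxolitinib (1) between 0 and 5, after GSK-LSD1 (16) between 8 and 19 and in the F-test (22) between 14 and 26. It moved the count higher after GSK-LSD1 (2) between 0 and 2 and after the combination (3) between 0 and 4. Of the calls after the combination, 6 were lost without DMSO replicate 1: Aurkb, Top2a, Espl1, Aurka and Anln, lower, and Nusap1, higher. Quantile normalisation ended 5 of these calls, Aurkb, Espl1, Kif11, Aurka and Cdca8, all lower. Against ruxolitinib, the combination counts moved between 4 and 7 lower and 0 and 3 higher, and those of GSK-LSD1 between 1 and 8 lower and 0 and 3 higher. The count lower after ruxolitinib was 0 with only the groups compared, with the GC correction, with the replicate block (with or without the GC correction) and with 10 libraries (ruxolitinib replicate 2 and combination replicate 3 left out). For the combination against ruxolitinib, the count lower (7) was 2 with quantile normalisation, 4 with equal library totals and 1 with only the groups compared. The count higher (1) was 2 with a mean of at least 50, 3 with quantile normalisation, 3 with equal totals, 0 with only the groups compared and 3 with the GC correction. For GSK-LSD1 against ruxolitinib, the count lower (4) was 9 with the GC correction and 7 with 10 libraries, and the count higher (1) was 3 with the GC correction. Quantile normalisation gave 13 in the F-test. The cause was not tested for any of these.

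Of 18 correlations between deviations of same-numbered libraries, from -0.148 to 0.15, 1 was over 0.1. Replicate numbers thus showed no strong pairing of the samples. A weaker pairing cannot be told from deviations around means of 3 libraries. The replicate block gave 14 lower after GSK-LSD1 and 19 after the combination. The replicate block with the GC correction gave 1 higher after GSK-LSD1, 2 higher for the combination against ruxolitinib and 8 lower for GSK-LSD1 against ruxolitinib. Over all members, tests and alternatives, a call was lost 167 times, gained 84 times and turned in direction 0 times.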
